A study of Mus musculus with 16 samples.

Results

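Pou5f1, Sox2, Sall4, Utf1, Lin28a, Lin28b and Trim71 were grouped as genes that mouse embryonic stem cells share with the epiblast cells that follow them. They were taken by gene symbol from a count table of poly(A) RNA sequencing, and all 7 were found among its 27179 genes and passed the filter on low counts, which kept 14288 genes. The study measured 16 libraries in 8 groups of 2. Mouse embryonic stem cells, whose line and strain the labels do not name, were first grown in serum with the cytokine LIF and then adapted over 3 passages to serum/LIF+2i or to serum-free 2i/LIF. Here 2i stands for 3 µM CHIR99021, which blocks the kinase GSK3, and 1 µM PD0325901, which blocks MEK. The serum/LIF+2i medium held 10% serum, 1000 U/ml LIF and 0.1 mM mercaptoethanol. Glutamine is given as 2 mM for all groups. Cells were used up to 9 passages after adaptation, and RNA was taken at 0 h, still in the maintenance medium, and 12, 24 and 40 h after exit, the move to serum-free medium without 2i or LIF. Cells had been seeded 24 h before exit. The 2i/LIF cultures kept their base medium after exit. The serum/LIF+2i cultures were given a serum-free DMEM and Neurobasal mix with 2 mM glutamine added back, so at every time after 0 h the group also carries its exit medium. The exit protocol of the serum/LIF+2i cells names 24 and 40 h, while sample titles give 12 h as well.

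In the pluripotent cell, OCT4 (the product of Pou5f1) and SOX2 bind DNA side by side at many enhancers, their own included, and SALL4 is a zinc finger protein that works with them and recruits the NuRD chromatin complex. UTF1 is a chromatin-bound protein encoded by a target of OCT4 and SOX2. LIN28A and LIN28B bind the precursors of the let-7 microRNAs and stop their maturation, and TRIM71 is an RNA-binding ubiquitin ligase of the same developmental circuit, in which Lin28a, Lin28b and Trim71 are themselves let-7 targets. Naive cells leaving 2i pass through a formative, epiblast-like state in which naive genes such as Nanog are shut down while OCT4 is kept.

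Libraries held 5931381 to 11142744 counts, and 3 counts correspond to 0.259 to 0.517 CPM (counts scaled to libraries of one size). Log2 counts of the libraries of a group correlated across genes at 0.991 to 0.995. Marker sums matched the label of embryonic stem cells leaving the naive state: 6 naive markers summed to 6087 to 6160 CPM at 0 h and 886 to 919 CPM at 40 h in 2i/LIF cells, and to 6218 to 6388 and 813 to 829 CPM in serum/LIF+2i cells. The sums of 4 formative markers went from 126 to 136 CPM up to 2394 to 2674 CPM in the 2i/LIF groups, and from 158 to 170 CPM up to 1843 to 1947 CPM in the serum/LIF+2i groups. Markers of other cells were low throughout, at most 16.2 CPM for 6 primitive endoderm genes, 40.0 for 5 mesendoderm genes, 56.5 for 4 neural genes, 17.1 for 4 trophectoderm genes, 36.0 for 5 2-cell-like genes and 10.0 for 4 fibroblast genes. Postn, a fibroblast marker, was at 0 in every library. Several of these sums moved with time. The neural sum went from 0.759 to 1.03 CPM at 0 h to 27.2 to 32.3 CPM at 40 h in 2i/LIF cells and from 3.97 to 4.85 up to 51.7 to 56.5 CPM in serum/LIF+2i cells. The 2-cell-like sum went from 3.04 to 6.20 up to 14.3 to 21.9 CPM in the 2i/LIF groups and from 0.734 and 0.735 up to 34.2 to 36.0 CPM in the serum/LIF+2i groups, and the primitive endoderm sum from 6.23 to 6.38 up to 10.5 to 13.5 CPM and from 6.32 to 6.90 up to 15.7 to 16.2 CPM. The mesendoderm sum went down, from 32.4 to 40.0 to 3.26 to 3.80 CPM in the 2i/LIF groups and from 21.9 to 29.1 to 4.40 to 4.65 CPM in the serum/LIF+2i groups, as did the trophectoderm sum, from 16.1 to 17.1 to 1.63 to 2.63 CPM and from 11.3 to 13.1 to 2.22 to 2.24 CPM. The fibroblast sum was 3.10 to 3.95 and 6.11 to 8.89 CPM at 0 and 40 h in the 2i/LIF groups, and 2.50 to 2.64 and 6.21 to 6.48 CPM in the serum/LIF+2i groups. The part of these sums in the changes of the 7 genes was not tested. In these bulk libraries, fewer cells of a type and less RNA per cell cannot be told apart. The labels do not say that the libraries of a group came from separate cultures, so the p-values measure the spread between these libraries, which may be technical.

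The 7 genes were sorted into 3 sets by the size of their change from 0 h. Utf1, Lin28a and Lin28b rose by more than 5-fold between 0 and 40 h in both media, so the grouping does not mean a steady level. Pou5f1, Sall4 and Trim71 had risen at 12 h and moved by at most 1.57-fold from their starting level at any time. Sox2 fell at 24 and 40 h, reaching 0.395 of its 0 h level at 40 h in 2i/LIF cells and 0.359 in serum/LIF+2i cells. A gene was called changed at an adjusted p under 0.05 in edgeR's quasi-likelihood test with Benjamini-Hochberg adjustment over all 14288 genes. At 12, 24 and 40 h, 7, 6 and 6 of the 7 were called against 0 h in 2i/LIF cells, where 44.7%, 58.8% and 68.8% of all genes tested were called. In serum/LIF+2i cells the counts were 5, 6 and 6 of 7, beside 51.2%, 64.4% and 70.5% of all genes. With 7 genes and such a background, these counts do not set the list apart. Changes of at least 1 on the log2 scale at 40 h were called for 4 of 7 in each medium, Sox2, Utf1, Lin28a and Lin28b, against 29.4% and 29.5% of all genes. Between 12 and 24 h, 7 of 7 were called in 2i/LIF cells (35.1% of all genes) and 5 of 7 in serum/LIF+2i cells (48.4%), and between 24 and 40 h all 7 in each (46.7% and 50.5%).

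**Figure D1:**
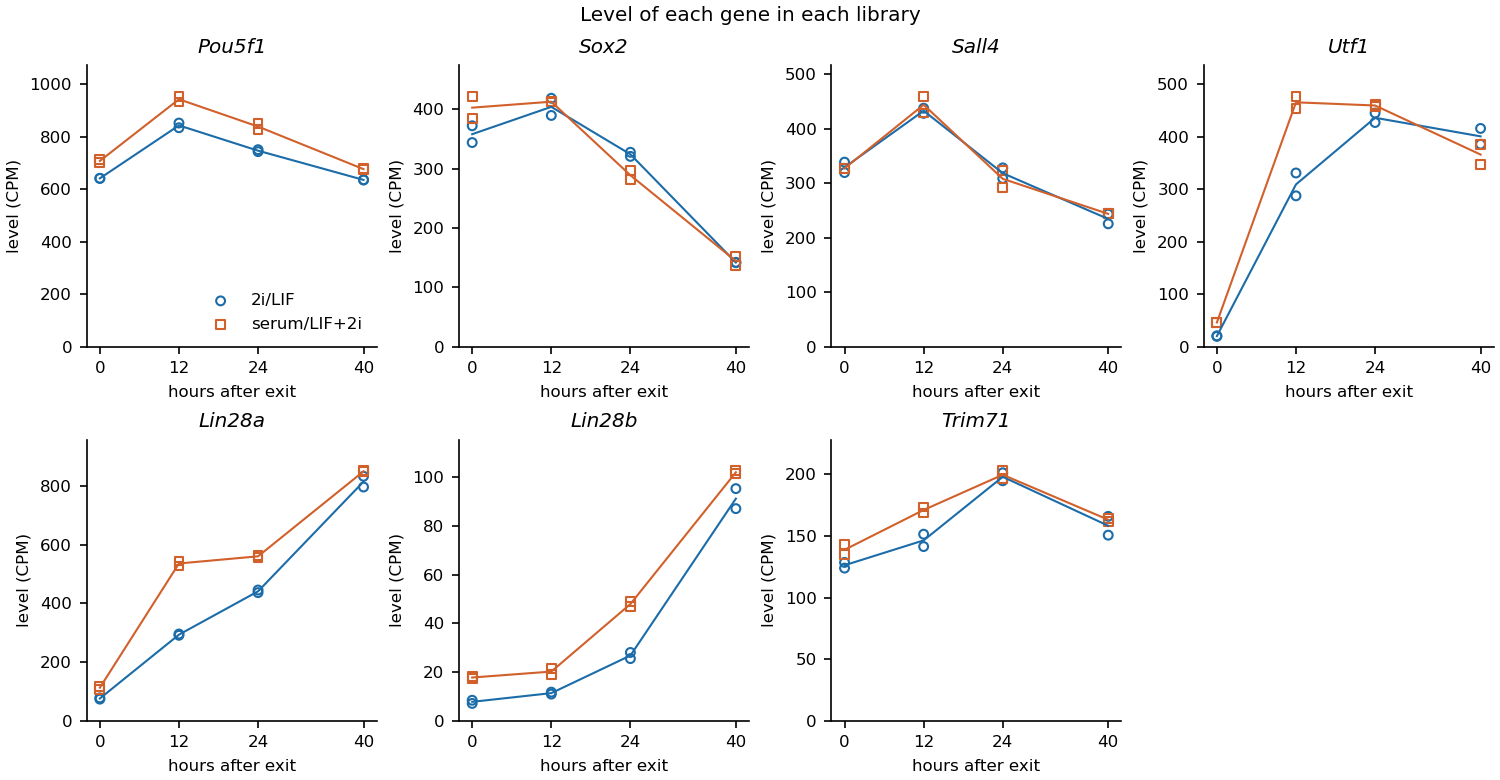
Level of each gene in CPM (vertical axis, from 0) against hours after exit. Each symbol is a library, circles for 2i/LIF and squares for serum/LIF+2i, and lines join the means of the 2 libraries. Pou5f1, Sall4 and Trim71 stay within 1.57-fold of their 0 h level, Sox2 ends at 142 and 144 CPM, and Utf1, Lin28a and Lin28b climb from low starting levels.

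Pou5f1 (Entrez 18999; GRCm38.p6 chr17:35506032-35510777) encodes the POU transcription factor OCT4, without which the embryo forms no pluripotent inner cell mass. Its 2 libraries stood at 641 and 641, 852 and 834, 743 and 750, and 635 and 635 CPM at 0, 12, 24 and 40 h in 2i/LIF cells. The serum/LIF+2i libraries stood at 702 and 712, 932 and 953, 827 and 849, and 674 and 678 CPM. In each medium the 12 h libraries were the highest and the 40 h libraries the lowest, and no 2 times within a medium overlapped. Pou5f1 rose between 0 and 12 h by 0.39 ± 0.03 (SE) as log2 change in 2i/LIF cells and by 0.41 ± 0.03 in serum/LIF+2i cells (adjusted p 4.2e-19 and 6.7e-21), a gain of 1.31-fold and 1.33-fold. It then fell at each step, by 0.18 and 0.23 in 2i/LIF cells and by 0.17 and 0.31 in serum/LIF+2i cells. At 40 h it was not called against 0 h, with differences of -0.01 ± 0.04 (adjusted p 0.749) and -0.07 ± 0.03 (adjusted p 0.0831), whose sign turned when only library size was used for scaling (0.05 and 0.01). Per length it was the highest of the 7 genes in all 8 groups, at 440 to 653 RPKM (CPM divided by the gene's length in kilobases), between place 50 and place 93 among the 14288 genes.

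Sox2 (Entrez 20674; GRCm38.p6 chr3:34649995-34652461) encodes the HMG-box partner of OCT4 and is also the factor that neural progenitors keep. It stood at 344 and 372 CPM at 0 h in 2i/LIF cells, then at 390 and 419, 321 and 328, and 142 and 141 CPM at 12, 24 and 40 h. With serum/LIF+2i its libraries were at 422 and 384, 413 and 414, 297 and 281, and 152 and 137 CPM. The 40 h libraries were the lowest in both media, far from all others, and those of the 2 media overlapped each other there. Against 0 h, Sox2 fell at 40 h by 1.34 ± 0.05 (SE) as log2 change in 2i/LIF cells and by 1.48 ± 0.05 in serum/LIF+2i cells (adjusted p 3.3e-41 and 3.1e-46), a level 2.53-fold and 2.79-fold lower. Most of this came between 24 and 40 h, with falls of 1.19 ± 0.05 and 1.00 ± 0.05. At 24 h the fall was 0.15 ± 0.04 in 2i/LIF cells and 0.48 ± 0.04 in serum/LIF+2i cells, and the difference between these falls, an interaction of -0.33 ± 0.06, was called (adjusted p 1.2e-05). At 12 h Sox2 rose by 0.17 ± 0.04 in 2i/LIF cells, and in serum/LIF+2i cells the difference was 0.04 ± 0.04 (adjusted p 0.505). The small 2i/LIF changes rest on single libraries. That at 12 h was not called without replicate 1 of 0 h (0.12, adjusted p 0.0709) or replicate 2 of 12 h (0.12, adjusted p 0.0532), and over all alternatives its adjusted p ran from 3.6e-05 to 0.0709. That at 24 h was not called without replicate 2 of 0 h (-0.09, adjusted p 0.177) or replicate 1 of 24 h (-0.13, adjusted p 0.0522), in a range from 0.00069 to 0.177.

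Sox2 lies inside the long noncoding gene Sox2ot, whose own row held 0.871 to 2.99 CPM, and whether the counting used strand is not given in the sources used here. The 250 bases before the Sox2 start are shown because Sox2 was the only one of the 6 genes with a RefSeq promoter entry whose window held the octamer core that POU factors read (ATGCAAA, searched on both strands, in capitals), 99 bases before the start. That word was in 4.12% of 32851 promoter windows of the same length. A single window was searched for each of the 6 genes, and any windows at other starts were left out. The window had 27 CpG pairs, against a median of 6 over all windows. Bases shortly after this RefSeq start were not found in a GENCODE transcript of Sox2, so the distance holds for the RefSeq start only.
Sox2 promoter, GRCm38.p6 chr3:34649745-34649994, plus strand: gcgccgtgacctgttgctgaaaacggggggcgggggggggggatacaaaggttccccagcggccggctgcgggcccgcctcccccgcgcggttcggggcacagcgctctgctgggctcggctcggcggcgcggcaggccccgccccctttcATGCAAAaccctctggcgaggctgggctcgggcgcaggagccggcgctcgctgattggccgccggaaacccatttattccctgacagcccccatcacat

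Sall4 (Entrez 99377; GRCm38.p6 chr2:168748332-168767201) encodes a zinc finger factor needed for epiblast growth. Its libraries stood at 319 and 338, 428 and 437, 328 and 308, and 243 and 225 CPM at 0, 12, 24 and 40 h in 2i/LIF cells. They stood at 327 and 327, 429 and 459, 323 and 293, and 243 and 244 CPM in serum/LIF+2i cells. The 12 h libraries were the highest and the 40 h libraries the lowest in both media, while those of 0 and 24 h lay close together. Sall4 rose by 0.39 ± 0.04 (SE) and 0.44 ± 0.04 on the log2 scale at 12 h (adjusted p 4.7e-14 and 8.1e-17). At 24 h it was not called against 0 h (-0.05 ± 0.04, adjusted p 0.349, and -0.09 ± 0.04, adjusted p 0.0589). The second of these was called in 3 of 22 alternatives, without serum/LIF+2i replicate 1 at 24 h (-0.16, adjusted p 0.0042) or either 2i/LIF replicate at 40 h (-0.09, adjusted p 0.0475 and 0.048), in a range up to 0.778. At 40 h Sall4 had fallen by 0.49 ± 0.04 and 0.43 ± 0.04, to 1.40-fold and 1.34-fold below 0 h. Sall4 was not called between the media at any of the 4 times, and its exit effect was not called different between media at any time. The differences between media, as serum/LIF+2i minus 2i/LIF, were -0.01 ± 0.04, 0.04 ± 0.04, -0.05 ± 0.04 and 0.06 ± 0.04 on the log2 scale at 0, 12, 24 and 40 h.

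Utf1 (Entrez 22286; GRCm38.p6 chr7:139943856-139945112) encodes a chromatin-bound protein that limits transcription at developmental genes and is a textbook target of OCT4 and SOX2. In 2i/LIF cells it stood at 20.5 and 19.4, 287 and 331, 445 and 427, and 415 and 385 CPM at 0, 12, 24 and 40 h. After serum/LIF+2i culture it stood at 45.7 and 46.1, 454 and 476, 458 and 460, and 384 and 347 CPM. The 0 h libraries were far below all others in each medium, and the serum/LIF+2i libraries of 12 h overlapped those of 24 h while those of 2i/LIF lay below theirs. Utf1 rose by 3.95 ± 0.08 (SE) on the log2 scale at 12 h in 2i/LIF cells, a 15.5-fold gain, and by 3.34 ± 0.06 in serum/LIF+2i cells, a 10.1-fold gain (adjusted p 1.1e-35 and 1.1e-36). At 40 h the rise was 4.33 ± 0.08 in 2i/LIF cells and 2.99 ± 0.06 in serum/LIF+2i cells, or 20.1-fold and 7.97-fold. Its place per length among all genes went from 5024 to 128 of 14288 in 2i/LIF cells and from 2435 to 133 in serum/LIF+2i cells, and from 12 h on it was second to Pou5f1 among the 7 genes in both media.

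Starting levels and exit effects of Utf1 both differed between media. At 0 h Utf1 was 2.30-fold higher in serum/LIF+2i cells (log2 difference 1.20 ± 0.11, SE; adjusted p 3.3e-12), at 12 h 1.51-fold higher (0.59 ± 0.05), and at 24 h it was not called (0.08 ± 0.05, adjusted p 0.228). The exit effect was smaller in serum/LIF+2i cells by 0.61 ± 0.12, 1.13 ± 0.12 and 1.33 ± 0.12 at 12, 24 and 40 h, given as the sizes of negative interactions (adjusted p 0.00039, 5.6e-10 and 4.1e-12). Between 24 and 40 h Utf1 fell by 0.33 ± 0.05 in serum/LIF+2i cells. The fall of 0.12 ± 0.05 in 2i/LIF cells (adjusted p 0.0319) was lost in 8 of 22 alternatives, among them without replicate 1 of 24 h (-0.09, adjusted p 0.222), without replicate 2 of 40 h (-0.07, adjusted p 0.333), without either 0 h replicate (both -0.12, adjusted p 0.0574 and 0.0579) and under DESeq2 (-0.10, adjusted p 0.195), with adjusted p from 0.0072 to 0.333.

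The Utf1 window before the start is shown for its 4 GC boxes (GGGCGG, searched on both strands, all on the strand printed), 56, 85, 133 and 138 bases before the start (in capitals, those at 133 and 138 sharing 1 base). The GC box was in 32.7% of all windows and in 4 of the 6 windows of these genes, those of Pou5f1, Sox2, Utf1 and Trim71.
Utf1 promoter, GRCm38.p6 chr7:139943606-139943855, plus strand: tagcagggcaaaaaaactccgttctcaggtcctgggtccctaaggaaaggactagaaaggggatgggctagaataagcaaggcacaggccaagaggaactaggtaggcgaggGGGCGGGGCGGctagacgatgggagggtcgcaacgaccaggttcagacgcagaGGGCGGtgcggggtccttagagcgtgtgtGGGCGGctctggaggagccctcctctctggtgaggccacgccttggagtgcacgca

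**Figure D2:**
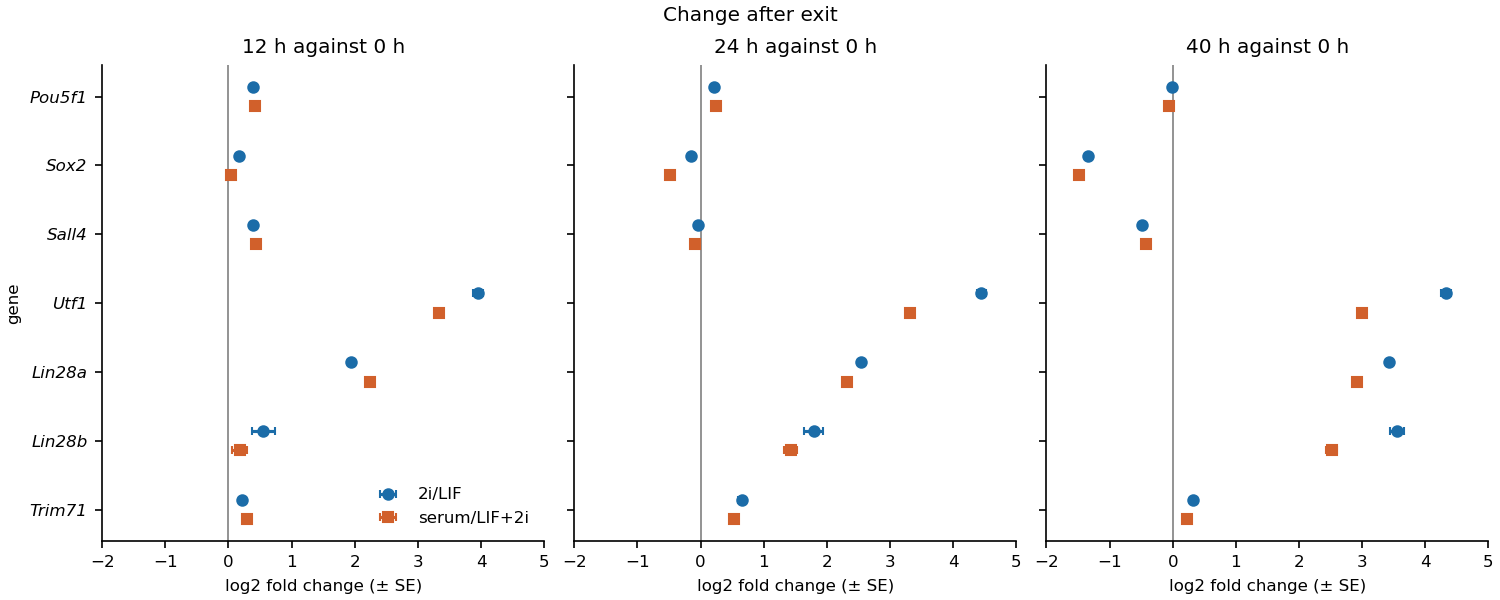
Log2 fold change against 0 h of the same medium (horizontal axis) for each gene at 12, 24 and 40 h, with bars of 1 SE from the edgeR fit. Circles are 2i/LIF and squares serum/LIF+2i. The symbols of Utf1 and, at 40 h, of Lin28a and Lin28b lie apart between media, with the 2i/LIF value the larger, while those of Pou5f1 and Sall4 lie close together.

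Lin28a and Lin28b encode a pair of related RNA-binding proteins with a cold shock domain and zinc knuckles. Mature let-7 microRNAs share the seed that pairs with their targets. It is shown because 3 of the 7 genes carry several matching sites. In RefSeq, 10 of 11 mature sequences of the family had the seed GAGGUAG at bases 2 to 8 (capitals), and let-7j had GAGGUAU.
let-7a-5p: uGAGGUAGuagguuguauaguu
miR-98-5p: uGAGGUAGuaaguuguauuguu
The 7-base match of that seed, CTACCTC on the transcript strand, occurred 2 times in the 3′ UTR of Lin28a, 4 times in that of Lin28b, 4 times in that of Trim71 and 1 time in that of Sall4, and not in those of Pou5f1, Sox2 and Utf1 (GENCODE transcripts, build GRCm38). For every gene, also those of the shares below, the coding transcript with the longest 3′ UTR was used, and shorter ones may hold fewer sites. At least 1 match was found in 8.96% of 20981 coding genes and at least 2 in 1.07%. Among 5181 genes with 3′ UTRs of 2000 to 8000 bases, the range of those of Lin28a, Lin28b and Trim71, the shares were higher, 19% and 3.11%. Trim71 sites 3 and 4, at 3591 and 3617 bases after the stop codon, lie outside the gene span given below for Trim71. The first site of each gene is printed with the match in capitals.
Lin28a site, chr4:134005189-134005212, minus strand: tgcacagcctgttgaaCTACCTCa
Lin28b site, chr10:45381022-45381045, minus strand: cacccgggcgggaagtCTACCTCa
Trim71 site, chr9:114512472-114512495, minus strand: caacattgcctaagtcCTACCTCa
These are matches of letters. No microRNA was measured, since poly(A) libraries do not hold mature microRNAs, and the 12 let-7 host or precursor rows of the table had at most 9 counts in any library.

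Lin28a (Entrez 83557; GRCm38.p6 chr4:134003330-134019196) stood at 73.9 and 78.2 CPM at 0 h in 2i/LIF cells, then at 296 and 292, 437 and 446, and 834 and 797 CPM. Its serum/LIF+2i libraries stood at 118 and 108, 528 and 545, 565 and 557, and 848 and 852 CPM. Every group stood apart from every other, in the order 0 h, 12 h, 24 h and 40 h within each medium. Lin28a rose by 1.95 ± 0.05 (SE), 2.53 ± 0.05 and 3.42 ± 0.05 on the log2 scale at 12, 24 and 40 h in 2i/LIF cells, and by 2.25 ± 0.04, 2.31 ± 0.04 and 2.91 ± 0.04 in serum/LIF+2i cells. The 40 h values are gains of 10.7-fold and 7.53-fold (adjusted p 3.0e-97 and 1.8e-93).

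The course of Lin28a between those times differed by medium. In 2i/LIF cells it rose at each step, by 0.59 ± 0.04 (SE) between 12 and 24 h and 0.89 ± 0.04 between 24 and 40 h. In serum/LIF+2i cells the first of these steps was 0.06 ± 0.04 (adjusted p 0.139, called with library size only, at 0.10 and adjusted p 0.0195, and among genes of at least 5 CPM, at 0.08 and adjusted p 0.0359) and the second 0.60 ± 0.04. The difference between the media in the step from 12 to 24 h was -0.52 ± 0.05 (adjusted p 1.5e-14) and in the step from 24 to 40 h -0.28 ± 0.05 (adjusted p 8.2e-06), comparisons added after the values were seen. At 12 h the rise was larger in serum/LIF+2i cells, an interaction of 0.30 ± 0.07 (adjusted p 0.00066), and at 40 h smaller, -0.51 ± 0.06 (adjusted p 1.3e-10). At 24 h the interaction was -0.22 ± 0.07 (adjusted p 0.0076). It was not called under DESeq2 (-0.21, adjusted p 0.0636), without replicate 1 of 2i/LIF at 0 h (-0.17, adjusted p 0.14) or without serum/LIF+2i replicate 1 at 0 h (-0.16, adjusted p 0.135), in a range from 0.0028 to 0.14. The window before the Lin28a start of the RefSeq promoter table, 380 bases inside the gene's span given above, is shown as the only one of the 6 with the core word of SOX factors (CATTGT, both strands searched, in capitals), 96 bases before that start and present in 10.7% of all windows.
Lin28a promoter, GRCm38.p6 chr4:134018817-134019066, minus strand: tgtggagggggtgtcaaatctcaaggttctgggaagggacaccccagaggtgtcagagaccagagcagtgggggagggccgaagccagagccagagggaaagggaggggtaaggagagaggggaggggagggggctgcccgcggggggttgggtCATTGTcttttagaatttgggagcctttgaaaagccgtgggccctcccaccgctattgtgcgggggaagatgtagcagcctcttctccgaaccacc

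Lin28b (Entrez 380669; GRCm38.p6 chr10:45376617-45486314) was the lowest of the 7 genes per length in every group, at 1.44 RPKM at 0 h in 2i/LIF cells and 18.9 RPKM at 40 h in serum/LIF+2i cells. Its libraries stood at 8.44 and 7.14, 10.96 and 11.8, 28.0 and 25.5, and 87.0 and 95.3 CPM at 0, 12, 24 and 40 h in 2i/LIF cells. Those of serum/LIF+2i stood at 18.1 and 17.5, 21.4 and 19.1, 47.0 and 48.8, and 101 and 103 CPM. All 8 groups stood apart, and the gap between the media was widest in proportion at 0 h and narrowest at 40 h. Unlike Lin28a, most of its rise came late. In 2i/LIF cells the rises at 12, 24 and 40 h were 0.55 ± 0.18 (SE), 1.79 ± 0.15 and 3.55 ± 0.12, the last a gain of 11.7-fold (adjusted p 7.4e-56). In serum/LIF+2i cells the difference at 12 h was 0.18 ± 0.13 (adjusted p 0.243), and the rise was 1.43 ± 0.10 at 24 h and 2.52 ± 0.09 at 40 h, a gain of 5.73-fold (adjusted p 1.2e-52). The 12 h rise in 2i/LIF cells (adjusted p 0.0088) was not called without replicate 2 of 0 h (0.43, adjusted p 0.136) or replicate 2 of 12 h (0.50, adjusted p 0.0648), in a range from 0.0072 to 0.136.

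The rise of Lin28b to 40 h was smaller in serum/LIF+2i cells by 1.03 ± 0.18 (SE) on the log2 scale, an interaction with an adjusted p of 1.6e-06. Lin28b had started higher in these cells, by 1.20 ± 0.17 at 0 h, and was higher by 0.16 ± 0.06 at 40 h. The step from 24 to 40 h was 1.76 ± 0.09 in 2i/LIF cells and 1.09 ± 0.07 in serum/LIF+2i cells. These steps differed by -0.67 ± 0.11 (adjusted p 1.9e-06), while those from 12 to 24 h, 1.24 ± 0.13 and 1.25 ± 0.09, were not called different (0.02 ± 0.17, adjusted p 0.967). The Lin28b window precedes the start in the same table, which lies 16113 bases inside the gene's span given above, so it is not the sequence before the outermost annotated start. It is shown because its base composition differs from that of the Lin28a window. It was the only one of the 6 with none of the 3 words searched and had 39.2% G and C, below the median of 52.4%, against 61.2% for Lin28a.
Lin28b promoter, GRCm38.p6 chr10:45470202-45470451, minus strand: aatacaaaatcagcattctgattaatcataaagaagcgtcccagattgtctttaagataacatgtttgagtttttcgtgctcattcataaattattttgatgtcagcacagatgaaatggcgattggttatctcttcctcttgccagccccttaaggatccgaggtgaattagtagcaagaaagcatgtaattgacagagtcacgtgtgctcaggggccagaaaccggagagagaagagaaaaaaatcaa

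Trim71 (Entrez 636931; GRCm38.p6 chr9:114511268-114564369) encodes a TRIM-NHL protein that binds hairpins in mRNAs and represses them. It stood at 129 and 124, 141 and 151, 201 and 195, and 166 and 151 CPM at 0, 12, 24 and 40 h in 2i/LIF cells. For serum/LIF+2i its values were 135 and 143, 174 and 169, 203 and 196, and 165 and 162 CPM. The 24 h libraries were the highest in both media, those of 0 h were the lowest, and the media overlapped at 24 and 40 h. Trim71 rose by 0.22 ± 0.05 (SE), 0.65 ± 0.05 and 0.33 ± 0.05 on the log2 scale at 12, 24 and 40 h in 2i/LIF cells, and by 0.30 ± 0.05, 0.52 ± 0.05 and 0.23 ± 0.05 in serum/LIF+2i cells. The 24 h rise was the largest in each medium, 1.57-fold and 1.44-fold (adjusted p 9.9e-22 and 6.7e-18), and was followed by falls of 0.32 ± 0.05 and 0.29 ± 0.05 to 40 h. Its exit effect was not called different between media at any time. The gene length deposited for Trim71 is 5197 bases, while the GENCODE transcript is 9332 bases long, so its level per length depends on the shorter model.

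Between the media, 6 of the 7 genes were called higher in serum/LIF+2i cells at 0 h, where 33% of all genes were called and 14.6% were called higher. The 6 were Utf1 and Lin28b, 2.30-fold and 2.29-fold higher, Lin28a, 1.48-fold higher, and Sox2, Pou5f1 and Trim71, 1.12-fold, 1.10-fold and 1.10-fold higher. The smallest of these differences were within reach of single libraries. That of Sox2 (log2 0.17 ± 0.04, SE) was not called without replicate 1 of 2i/LIF (0.11, adjusted p 0.144) or replicate 1 of serum/LIF+2i (0.10, adjusted p 0.123), in a range from 5.5e-05 to 0.144. That of Trim71 (0.14 ± 0.06, adjusted p 0.0453) was lost in 11 of 22 alternatives, among them DESeq2 (0.13, adjusted p 0.176), leaving out either replicate of 2i/LIF at 0 h (0.15 and 0.11, adjusted p 0.0886 and 0.287) and leaving out replicate 2 of serum/LIF+2i at 0 h (0.09, adjusted p 0.358). It was also lost without either 2i/LIF replicate at 12 h, serum/LIF+2i replicate 1 at 12 h or either serum/LIF+2i replicate at 40 h (0.13 each, adjusted p 0.0572 to 0.061), and its adjusted p ran from 0.0214 to 0.358.

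In the edgeR fit fewer of the 7 genes were called between the media at each later time. This order depends on the calls of Sox2 and Trim71 at 0 h, which some alternatives lost. At 12, 24 and 40 h, 5, 4 and 3 of the 7 genes were called between media, beside 30.3%, 31.1% and 27.3% of all genes. Lin28a was 1.83-fold, 1.27-fold and 1.04-fold higher in serum/LIF+2i cells at these times, the last not called (adjusted p 0.198). Lin28b was 1.77-fold, 1.79-fold and 1.12-fold higher. Pou5f1 kept a small difference throughout, with 1.10-fold, 1.12-fold, 1.12-fold and 1.06-fold at 0, 12, 24 and 40 h. Sox2 was lower in serum/LIF+2i cells at 24 h, by 0.17 ± 0.04 (SE; adjusted p 0.0017), a call lost without serum/LIF+2i replicate 2 at 24 h (-0.13, adjusted p 0.0663, in a range from 0.00033).

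The 3 calls at 40 h, Pou5f1 (0.09 ± 0.03, SE), Lin28b (0.16 ± 0.06) and Utf1 (-0.13 ± 0.05), had adjusted p of 0.0393, 0.0372 and 0.0322 in edgeR. Under DESeq2 0 of the 7 genes were called at 40 h, with 2 at an unadjusted p under 0.05. Without replicate 1 of 2i/LIF at 40 h 0 were called, without replicate 2 of serum/LIF+2i 0, and without replicate 1 of serum/LIF+2i 1. The call of Pou5f1 was lost in 11 of 22 alternatives, with a difference between 0.08 and 0.09 without any 1 of the 0, 12 or 40 h replicates of 2i/LIF, replicate 1 of serum/LIF+2i at 12 h or either of its 40 h replicates. Over all alternatives adjusted p ran from 0.0051 to 0.183 for Pou5f1, from 0.014 to 0.434 for Lin28b and from 0.0015 to 0.411 for Utf1. The interaction, which asks whether exit changed a gene differently in the 2 media, was called for 2, 3 and 3 of the 7 genes at 12, 24 and 40 h, beside 9.2%, 20.8% and 27.6% of all genes. It was called for Utf1 and Lin28a at all 3 times, for Sox2 at 24 h and for Lin28b at 40 h.

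Ratios of levels per length put these courses side by side within a library. Pou5f1 to Sox2, the balance of the 2 partners that bind together, was 3.05 ± 0.171 (SD, n = 2), 3.55 ± 0.233, 3.92 ± 0.0316 and 7.63 ± 0.0188 at 0, 12, 24 and 40 h in 2i/LIF cells. In serum/LIF+2i cells it was 3.00 ± 0.228, 3.88 ± 0.0549, 4.94 ± 0.275 and 8.0 ± 0.625. The 40 h libraries, from 7.56 to 8.44, lay above all others, of which the highest was 5.14. Lin28a to Lin28b was 15.3 ± 2.42, 40.2 ± 2.42, 25.7 ± 2.06 and 13.9 ± 1.33 in 2i/LIF cells and 9.86 ± 0.386, 41.4 ± 4.25, 18.2 ± 0.662 and 12.9 ± 0.0682 in serum/LIF+2i cells. It peaked at 12 h in both media, with no overlap between the 12 h libraries and those of other times. Pou5f1 to Utf1 went from 25.8 ± 0.971 to 1.28 ± 0.0665 in 2i/LIF cells and from 12.4 ± 0.045 to 1.49 ± 0.112 in serum/LIF+2i cells. No test was made of these ratios.

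**Figure D3:**
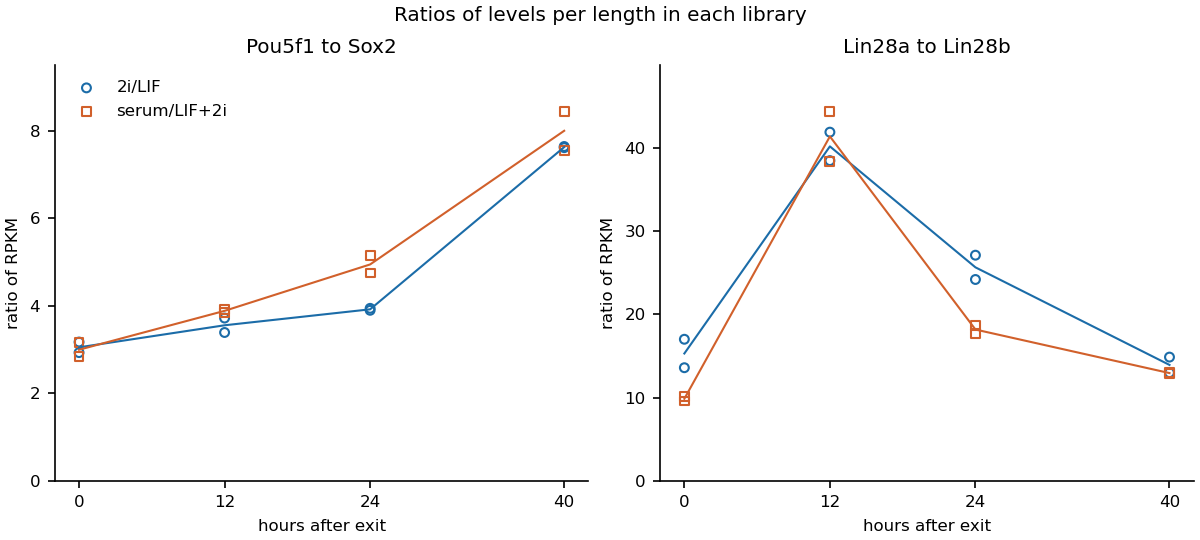
Ratio of RPKM of Pou5f1 to Sox2 (left) and of Lin28a to Lin28b (right) in each library against hours after exit. Circles are 2i/LIF, squares serum/LIF+2i, and lines join group means. The first ratio is highest at 40 h, at 7.63 and 8.0, and the second at 12 h, at 40.2 and 41.4.

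Genes tied to the members by function were taken from lists, each described by its counts and its median at 40 h beside the median of all genes, 0.01 in 2i/LIF cells and -0.0032 in serum/LIF+2i cells on the log2 scale. Over all genes, 34.1% were called higher and 34.7% lower in the former, and 35.3% each way in the latter. Of 14 targets and partners of OCT4 and SOX2, 6 rose and 8 fell in 2i/LIF cells (median -0.30), and 5 rose and 9 fell in serum/LIF+2i cells (median -0.49). Those with the smallest adjusted p all fell. Nanog, a homeobox factor of the naive state, fell from 665 ± 20.9 (SD, n = 2) to 27.8 ± 1.71 CPM in 2i/LIF cells, and from 801 ± 0.932 to 15.5 ± 0.817 CPM in those of serum/LIF+2i. Spp1, a secreted phosphoprotein, had log2 changes of -3.13 and -4.17, Zfp42 (the marker REX1) of -2.82 and -3.31, and Fbxo15, an F-box protein gene, of -2.13 and -2.64. Pou5f1 itself was not called at 40 h in either medium.

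Of 11 NuRD subunits, the chromatin complex that SALL4 recruits, 6 rose and 4 fell in 2i/LIF cells (median 0.08) and 5 rose and 5 fell in serum/LIF+2i cells (median -0.01). The 3 Mta paralogues did not move together. Mta2 fell by 0.67 ± 0.04 (SE) and 0.75 ± 0.04 on the log2 scale while Mta1 rose by 0.59 ± 0.06 and 0.79 ± 0.06 and Mta3 by 0.80 ± 0.06 and 0.30 ± 0.05. The remodeller Chd4 rose by 0.46 and 0.42, Mbd3 by 0.51 and 0.73, and the deacetylase Hdac2 fell by 0.49 and 0.78.

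Of 10 genes that act with LIN28 or process microRNAs, 3 rose and 4 fell in 2i/LIF cells (median 0.04), and 5 rose and 4 fell in serum/LIF+2i cells (median 0.10). Tut4, which adds uridines to let-7 precursors held by LIN28A, rose from 98.1 ± 0.182 (SD, n = 2) to 160 ± 4.27 CPM in 2i/LIF cells, and from 98.1 ± 3.09 to 172 ± 1.11 CPM in those of serum/LIF+2i, while its paralogue Tut7 fell by 0.42 and 0.51 on the log2 scale. Ago2, the slicing Argonaute, fell by 0.72 ± 0.04 (SE) and 0.84 ± 0.04, and Ago1 by 0.58 and 0.31. Dicer1, which cuts precursors, rose by 0.33 in both, and the exporter Xpo5 by 0.37 and 0.20.

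Of 13 let-7 targets outside the 7 genes, 7 rose and 4 fell in 2i/LIF cells (median 0.14) and 6 rose and 6 fell in serum/LIF+2i cells (median 0.03). Nr6a1, an orphan nuclear receptor, rose by 1.41 ± 0.05 (SE) and 2.17 ± 0.06 on the log2 scale. The cyclin Ccnd2 went from 1.66 to 11.9 CPM and from 0.661 to 15.6 CPM, and was higher at 12 h, at 28.6 and 42.6 CPM. At 0 h Ccnd2 was close to the level of 3 counts in serum/LIF+2i cells and uneven in 2i/LIF cells (SD 1.06, n = 2), so no fold is given. The RNA-binding gene Igf2bp3 fell by 0.64 and 0.39. Mycn, a MYC family factor, rose by 1.15 ± 0.07 in 2i/LIF cells and fell by 0.32 ± 0.06 in serum/LIF+2i cells. At 24 h Mycn stood above its 0 h level in both, at 183 against 79.7 CPM and 160 against 118 CPM. Igf2bp2 fell by 1.04 ± 0.05 in serum/LIF+2i cells and was not called in 2i/LIF cells (-0.02 ± 0.05, adjusted p 0.73).

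Of 7 TRIM71 targets, 1 rose and 5 fell in 2i/LIF cells (median -0.89), and 2 rose and 5 fell in serum/LIF+2i cells (median -0.74). At 12 and 24 h the medians were -0.0058 and -0.06 in 2i/LIF cells and 0.05 and -0.17 in serum/LIF+2i cells. A link to the level of Trim71, which was highest at 24 h, was not tested. Cdkn1a, the cell cycle inhibitor p21 whose mRNA TRIM71 represses, fell from 397 ± 7.32 (SD, n = 2) to 79.2 ± 6.96 CPM in 2i/LIF cells, and from 313 ± 13.9 to 76.6 ± 1.27 CPM in those of serum/LIF+2i. Most of this fall came by 12 h, when Cdkn1a stood at 109 ± 0.949 and 56.7 ± 5.58 CPM. Plxnb2 fell by 0.98 and 1.31 on the log2 scale and Rbl1 by 0.89 and 0.74. Egr1 was called higher and stood at 2.58 and 3.01 CPM at 40 h, but at 0 h its means, 0.152 and 0.0734 CPM, were under the level of 3 counts per library, so no fold is given.

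The last list held relatives of OCT4, SOX2 and SALL4. Of 15, 8 rose and 6 fell in 2i/LIF cells (median 0.27) and 8 rose and 4 fell in serum/LIF+2i cells (median 0.56). Sall2 rose from 9.25 ± 0.889 (SD, n = 2) to 122 ± 9.74 CPM in 2i/LIF cells, and from 16.5 ± 2.18 to 114 ± 1.20 CPM in those of serum/LIF+2i. The SoxC genes Sox4 and Sox11 rose by 3.54 ± 0.13 (SE) and 2.86 ± 0.10 as log2 change in 2i/LIF cells and by 4.04 ± 0.15 and 3.33 ± 0.09 in serum/LIF+2i cells, and the SoxB1 gene Sox1, a paralogue of Sox2, by 5.09 ± 0.29 and 3.44 ± 0.15. At 0 h Sox1 stood at 0.659 ± 0.287 (SD, n = 2) and 4.33 ± 0.726 CPM. The former is close to the level of 3 counts, so the size of the rise in 2i/LIF cells is uncertain. Sox1 reached 22.6 and 47.2 CPM at 40 h, below the 142 and 144 CPM that Sox2 kept, on a scale that is not per length. Pou2f3 fell by 4.02 ± 0.15 and 2.92 ± 0.17.

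**Figure D4:**
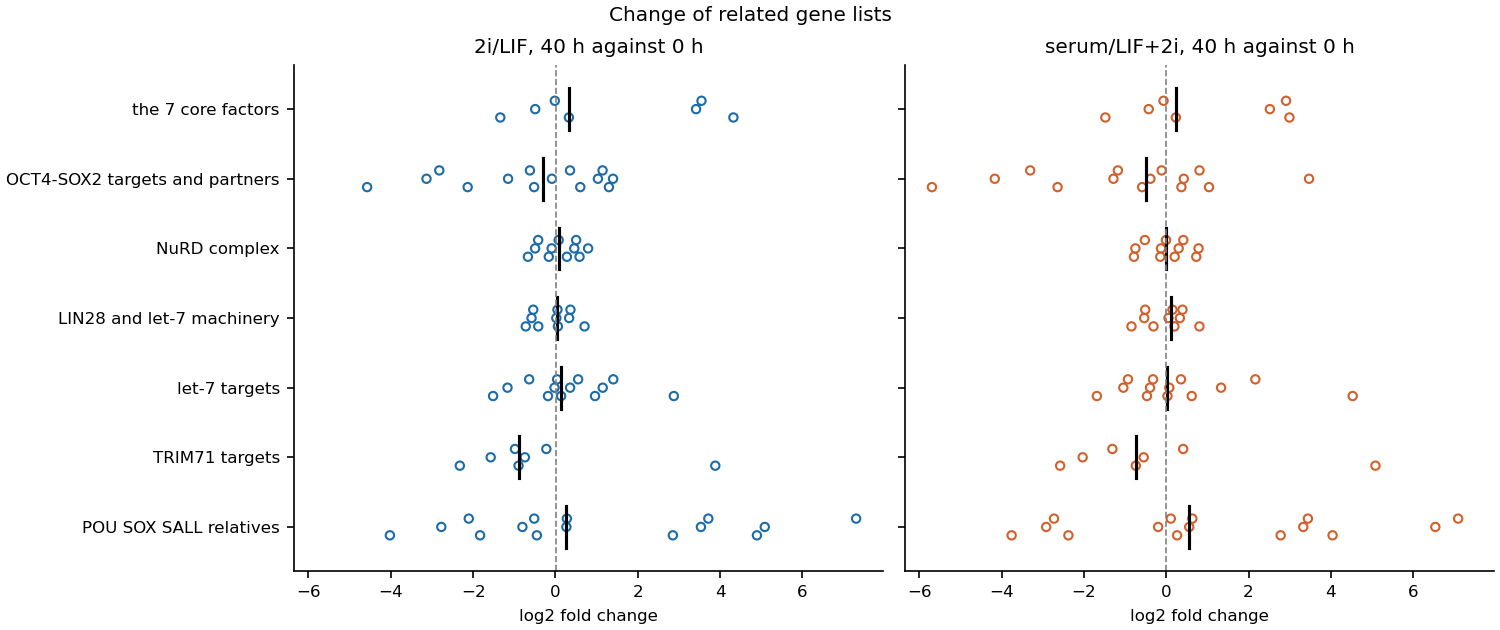
Log2 fold change at 40 h against 0 h (horizontal axis) of every member of the 7 core factors and of 6 related lists, in 2i/LIF cells (left) and serum/LIF+2i (right). Each circle is a gene, black bars are list medians, and the dashed line is the median of all 14288 genes. The TRIM71 targets have the lowest medians, -0.89 and -0.74. In serum/LIF+2i cells the targets and partners of OCT4 and SOX2 run from -5.69 (Nanog) to 3.47 (Lefty1).

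The genes most like each member over the 8 group means were sought by Pearson correlation of mean log2 CPM among 10768 genes with at least 5 CPM. All share the same 16 libraries, and time dominates the 8 points, so high values are common. Sox2 was closest to Kbtbd11 (0.995), Zfp42 (0.994) and Tfpi (0.992), and Sall4 to Aamp (0.991), Map2k3 (0.985) and Epb41l4a (0.984). Pou5f1 had its nearest at 0.970 (Ifnar1), 0.970 (Phlda1) and 0.967 (Arf2). Utf1 was closest to Kpnb1 (0.989), Gtf2h4 (0.988) and Cinp (0.988), Lin28a to Cacng7 (0.996), Arrdc4 (0.993) and Rapgef5 (0.993), and Lin28b to Grik5 (0.997), Ppfibp1 (0.994) and Arhgef25 (0.994). Trim71 was closest to Eif6 (0.973), Taf13 (0.969) and Sema4d (0.959). Among the 7 genes the highest pair was Utf1 and Lin28a (0.93), then Sox2 and Sall4 (0.89), and the lowest was Sox2 and Lin28b (-0.89).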

How the data were processed

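Poly(A) RNA of 16 libraries, 2 in each of 8 groups of medium and time, was analysed from the raw counts per gene that the authors deposited. Per the submitters' processing notes, fastp, STAR, featureCounts and the build mm10 were used, and their versions, settings and strand mode are not given in the sources used here. Groups were taken from the sample titles. The 7 genes and the gene lists were chosen with earlier results of these data known.

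Counts were tested with edgeR 4.0.16 (R 4.3.3): TMM scaling, a filter on low counts (minimum 10, total 15), a robust quasi-likelihood fit with 1 term per group over all 16 libraries (8 residual degrees of freedom), 17 comparisons, and 2 added after the values were seen, with Benjamini-Hochberg adjustment over 14288 genes. SE is the log2 change divided by the root of F. CPM uses the effective library size and RPKM the deposited gene length. Rows without a symbol (1049) stayed in the fit under their Entrez IDs. From each list, up to 4 genes with the smallest adjusted p at 40 h per medium were named, and for likeness the 3 highest correlations. A gene of the let-7 target list that this rule names is not reported here. Alternatives were DESeq2 1.42.0, other scalings, filters, a replicate block and leaving out each library. Sequences came from RefSeq tables on GRCm38.p6 (promoters, 6 of 7 genes matched, Sall4 not, and mature microRNAs) and from GENCODE transcripts on GRCm38, the build of mm10.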

Additional observations from a re-analysis of the deposited data

Results flagged for a closer look

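Exit effects were called different between the 2 media for 2, 3 and 3 of the 7 genes at 12, 24 and 40 h, beside 9.2%, 20.8% and 27.6% of all genes, by the interaction in edgeR's quasi-likelihood fit (serum/LIF+2i minus 2i/LIF, on the log2 scale, adjusted over 14288 genes). For Utf1 the difference was -0.61 ± 0.12 (SE), -1.13 ± 0.12 and -1.33 ± 0.12 at 12, 24 and 40 h. For Lin28a it was 0.30 ± 0.07, -0.22 ± 0.07 and -0.51 ± 0.06. Sox2 had -0.33 ± 0.06 at 24 h and Lin28b -1.03 ± 0.18 at 40 h. Each of these values is the difference between media at that time minus the one at 0 h. Between media, Utf1 differed by 1.20 ± 0.11 at 0 h and -0.13 ± 0.05 at 40 h. Lin28b differed by 1.20 ± 0.17 and 0.16 ± 0.06, and Lin28a by 0.57 ± 0.05 and 0.06 ± 0.03. The cultures also had different exit media, which cannot be told apart from the maintenance media.

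Steps between times also differed, in comparisons added after the values were seen. From 12 to 24 h the difference was -0.20 ± 0.06 for Sox2, -0.52 ± 0.07 for Utf1, -0.52 ± 0.05 for Lin28a and -0.21 ± 0.07 for Trim71, 4 of 7 genes beside 17.1% of all genes. From 24 to 40 h it was 0.19 ± 0.07 for Sox2, -0.21 ± 0.07 for Utf1, -0.28 ± 0.05 for Lin28a and -0.67 ± 0.11 for Lin28b, 4 of 7 beside 12.2%. Those of Sox2 (both steps), Trim71 and Utf1 (24 to 40 h) were lost under DESeq2. They were lost in 4 and 12 of 22 alternatives for Sox2, in 5 for Trim71 and in 6 for Utf1, and their adjusted p reached 0.185, 0.465, 0.199 and 0.2. Among these, that of Sox2 from 24 to 40 h was 0.10 (adjusted p 0.465) without serum/LIF+2i replicate 1 at 40 h, the smallest value of any alternative.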

How the results depend on the processing

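Of 133 results on the 7 genes in 19 comparisons, 113 stayed on their side of the threshold in all 22 alternatives, and 81 of 96 calls held in each of them. The sign turned in at least 1 alternative for 16 of the 113, none of them called. No call reversed. The replicate block (numbers in the labels) changed 0 of 133. Deviations of same-numbered libraries correlated between -0.023 and 0.033 over 28 pairs of groups, which gives no sign of pairing by number. Counting noise in single genes also pulls such values toward 0, so they cannot show that the numbers mark nothing shared.

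DESeq2 called fewer genes in all for the differences between media, 3115, 2668, 2729 and 2010 at 0, 12, 24 and 40 h against 4710, 4334, 4439 and 3897. For the interaction it called 574, 1789 and 2419 against 1315, 2966 and 3940, and for the step differences 1240 and 783 against 2440 and 1743. The cause was not tested. Of the 7 genes it called 0 against 3 between media at 40 h and 2 against 4 in each step difference. Leaving out single libraries gave 0 to 3 members called between media at 40 h, 2 to 4 from 12 to 24 h and 2 to 4 from 24 to 40 h in the step differences, and 2240 to 4074 genes in all between media at 40 h, the fewest when replicate 1 of the 2i/LIF cells at 40 h was left out. The step differences of 2 genes came without 2i/LIF replicate 1 at 12 h or replicate 2 of serum/LIF+2i at 24 h (12 to 24 h), and without 2i/LIF replicate 2 at 24 h, 2i/LIF replicate 1 at 40 h or replicate 2 of serum/LIF+2i at 24 h (24 to 40 h). A lone library left in a group is assumed to vary like the other groups.

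With only library size for scaling, group means of the 7 genes moved by -2.47% to 4.28%, and Lin28a was called between media at 40 h (0.09, adjusted p 0.041). The interaction of Sox2 was called at 12 h without replicate 2 of the serum/LIF+2i cells at 0 h (-0.20, adjusted p 0.0266) and at 40 h without that library, 2i/LIF replicate 2 at 0 h or serum/LIF+2i replicate 1 at 40 h (-0.20, -0.20 and -0.22, adjusted p 0.0144, 0.0369 and 0.0192). Depth limits Lin28b most, at 7.14 CPM in its lowest library.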
